A study of Caenorhabditis elegans with 2 samples.

Results

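The genes examined were 87 protein-coding genes of Caenorhabditis elegans whose symbols begin with sec-, rab-, arf-, arl-, snx-, vps- or epn-, out of 19973 on chromosomes I to V and X in the WBcel235 annotation. The rule uses the symbol alone, but the prefixes were picked with earlier results of these data known, and epn- adds a single gene. The genes comprise 31 vps genes, 20 rab genes, 19 sec genes, 7 snx genes, 6 arl genes, 3 arf genes and epn-1. The assay was chromatin immunoprecipitation followed by sequencing (ChIP-seq), which maps where a protein sits on DNA. The material was whole L3 larvae, labelled as pooled male and female, of strain OP355 with genotype unc-119(tm4063) III; wgIs355. There were 2 biological replicates of this single group. No untagged strain or other condition was analysed here. The labels disagree on the target, since mdl-1 stands in the antibody and strain fields and eGFP-ZK337.2 in the description, so the protein is called the tagged factor. It was expressed from the integrated transgene wgIs355, and its own cell types are not given. Whole larvae mix all tissues, so a region cannot be assigned to a cell type.

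Proteins destined for secretion or for membranes enter the endoplasmic reticulum (ER) through the Sec61 channel and leave it in vesicles coated by COPII. Rab, Arf and Arl GTPases then mark compartments and recruit tethers such as the exocyst, which docks vesicles at the plasma membrane. On the inward route epsin helps build clathrin-coated pits, sorting nexins and retromer recycle cargo from endosomes, ESCRT complexes bud receptors into multivesicular bodies, and the HOPS complex fuses late endosomes with lysosomes.

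Values come from 4 lists of called regions in build ce11. The list of reproducible regions, filtered by irreproducible discovery rate (IDR), held 1015 regions with signals of 25.9 to 539 and a median of 39.4. A region can be in it without being listed in both replicates, as at vps-60, so reproducible here means only a place in this list. The pooled list and the replicate 2 list held 30000 regions each and the replicate 1 list 15898, most of them weak. The pooled list is labelled as peaks and background used as input for IDR. A summit in it alone therefore need not mark binding. The signal is the peak caller's own score, without a stated scale, and is compared only within a list. A gene was scored as having a region when a summit, the position of highest signal in a region, lay from 1000 bp upstream to 200 bp downstream of its annotated 5′ end. Operons were not annotated in the tables used, so a gene transcribed from the promoter of an upstream neighbour cannot be told from a gene with its own. The sources used here do not give read depth. Intervals are exact Clopper-Pearson 95% intervals that cover counting error over genes or regions only. No test was run on the gene set.

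Reproducible regions lay at 12 of the 87 traffic genes (13.8%, interval 7.34 to 22.9), where 2.52% of all protein-coding genes (504 of 19973) had one. The 12 genes were epn-1, rab-14, rab-18, rab-7, sec-61.G, sec-15, vps-32.1, vps-60, sec-24.1, sec-61.A, sec-61.B and snx-1, in order of IDR signal. Each had a single reproducible region in its window. The window overlapped that of another protein-coding gene at 48 of 87 traffic genes (55.2%) and at 33.7% of all genes. When every summit was counted for the nearest 5′ end alone, 8 traffic genes (9.20%) and 2.08% of all genes kept a region, and rab-7, sec-15, sec-61.B and vps-32.1 dropped out. With the 507 stronger reproducible regions the count was 7 genes (8.05%) against 1.29% of all genes.

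The longer lists gave larger shares for traffic genes than for all genes. They hold most or all of the 12 reproducible regions, so they are not separate evidence. In the pooled list 48 traffic genes (55.2%, interval 44.1 to 65.9) had a summit in the window, against 38.2% of all genes. The replicate 1 list placed one at 30 (34.5%, against 21.7%) and the replicate 2 list at 49 (56.3%, against 38.1%). The highest region in the window ranked between 1016 and 5000 in the pooled list for 18 traffic genes (20.7%), against 7.63% of all genes, and below rank 5000 for another 18 (20.7%), against 28.1%. Among genes with any pooled summit, the median of the highest signal was 13.8 over 48 traffic genes and 8.08 over 7632 protein-coding genes. No summit of any list lay in the window of 30 of the 87 traffic genes and of 9504 of all 19973 genes. A further 9 traffic genes had a replicate summit but no pooled one, so lacking a pooled summit does not show absence of binding.

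**Figure D1:**
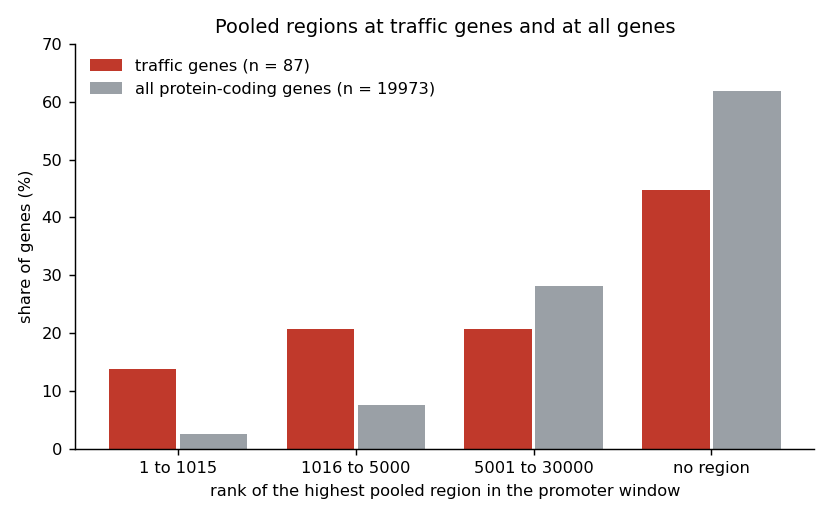
Share of genes (%, vertical axis) by the rank of the highest pooled region in the promoter window (horizontal axis), for the 87 traffic genes and all 19973 protein-coding genes. Traffic genes had larger shares in the 2 stronger classes (13.8% against 2.52% and 20.7% against 7.63%). Their shares were smaller in the weakest class and in the class without a region. The strongest class holds the same 12 traffic genes as the reproducible list.

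DNA under the reproducible regions is shown first, so that the motifs counted later can be read in place. Each run is 61 bases on the strand of the gene, 5′ to 3′, from WBcel235 (ce11), centred on the searched motif nearest the summit, with all searched motifs in capitals. The motifs were CACGTG, the E-box bound by Myc, Mad and Max proteins, its variant CACGCG, the extended E-box TCACGTGA, the GA repeat GAGAGA, the CTG element CTGCGTC, the bZIP site TGACGT, the longer XBP-1-type site TGACGTG, and the GC box GGCGGG. Both strands were searched, so a motif can appear as its reverse complement, such as TCTCTC for GAGAGA. TCACGTGA contains CACGTG and TGACGTG contains TGACGT. For rab-7 a second run is centred on its CACGTG, and the runs overlap. Runs that touched an mRNA exon were left out, which removed sec-15, and rab-18, vps-32.1 and sec-61.A had no searched motif within 100 bp of the summit.
epn-1, chrX:14818966-14819026, minus strand: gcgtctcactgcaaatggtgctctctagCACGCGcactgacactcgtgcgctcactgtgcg
rab-14, chrX:15607145-15607205, minus strand: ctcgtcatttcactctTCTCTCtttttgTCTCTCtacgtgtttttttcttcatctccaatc
rab-7, chrII:11967661-11967721, minus strand: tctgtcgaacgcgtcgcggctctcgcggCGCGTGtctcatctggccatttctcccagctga
rab-7, chrII:11967619-11967679, minus strand: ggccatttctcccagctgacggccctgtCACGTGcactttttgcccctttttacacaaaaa
sec-61.G, chrV:10897328-10897388, minus strand: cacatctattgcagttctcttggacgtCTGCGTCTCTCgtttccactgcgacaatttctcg
sec-24.1, chrIV:11566342-11566402, minus strand: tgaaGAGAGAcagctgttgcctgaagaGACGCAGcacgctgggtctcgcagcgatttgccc
vps-60, chrV:8606523-8606583, minus strand: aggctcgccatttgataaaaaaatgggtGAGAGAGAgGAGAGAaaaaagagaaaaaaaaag
sec-61.B, chrIV:2389185-2389245, minus strand: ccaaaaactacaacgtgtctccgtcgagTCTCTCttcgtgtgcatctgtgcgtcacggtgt
snx-1, chrX:1128615-1128675, plus strand: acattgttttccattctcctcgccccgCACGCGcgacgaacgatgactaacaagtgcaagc

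The Sec61 channel was the one subgroup of several genes in which every annotated member had a reproducible region, with 3 of 3 genes. The gamma subunit gene sec-61.G (WBGene00001303) had an IDR signal of 52.5 (rank 311 of 1015) at chrV:10897200-10897563, with the summit 239 bp upstream of its 5′ end. Its signal was 12.3 in replicate 1 (rank 416) and 36.6 in replicate 2 (rank 367), so the region was among the 1015 strongest of both replicates. In the run printed above, CTGCGTC and TCTCTC overlap. The window of the gene F32D8.13, on the same strand, holds this summit too, 839 bp upstream of that gene's 5′ end.

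The alpha subunit gene sec-61.A (WBGene00013311), which encodes the pore itself, had a weaker region with an IDR signal of 30 (rank 803) at chrIV:14824946-14825309. It was listed with a signal of 10.4 in replicate 1 (rank 572) and 19.9 in replicate 2 (rank 1061), where it fell just short of the strongest 1015. The summit lay 136 bp inside the gene, in an exon, and none of the 8 motifs lay within 100 bp of it. The divergent gene rps-18, for a ribosomal protein of the small subunit, begins 415 bp away, and the summit is 551 bp upstream of it. The nearer 5′ end was therefore that of sec-61.A. The GC content around this summit, 36.3%, was the lowest of the 12.

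At the beta subunit gene sec-61.B (WBGene00021427) the region (chrIV:2388983-2389346) had an IDR signal of 27.3 (rank 931), 8.10 in replicate 1 (rank 938) and 18.7 in replicate 2 (rank 1174). The summit was 490 bp upstream of sec-61.B and 280 bp upstream of the divergent gene trap-3, which encodes a subunit of the translocon-associated protein complex that binds the same channel. Both genes of this pair thus belong to ER import, and the data give them 1 region. Without replicate 1, that is, with the 1015 strongest regions of replicate 2, sec-61.A and sec-61.B lost their region and sec-61.G kept it.

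In the COPII coat and its assembly factors, 1 of 7 genes had a reproducible region and 5 of 7 a pooled one. The gene was sec-24.1 (WBGene00004755), for a cargo-binding subunit of the inner coat, with an IDR signal of 34.3 (rank 654) at chrIV:11566187-11566550. Replicate 1 gave 12.4 (rank 411) and replicate 2 gave 22.1 (rank 874), with the summit 175 bp upstream of the gene and a CTGCGTC 3 bp from it. The region overlaps annotated non-coding transcripts, F12F6.13 and F12F6.14. The regions at sec-15 and sec-61.B overlap such transcripts too, C28G1.8 and Y38F2AR.17. Such overlap was looked up only for the 61 bases around a motif.

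Other coat genes had pooled regions below the IDR threshold. The signal was 24.7 (rank 1108) at sec-12, the exchange factor that starts coat assembly, 20.8 (rank 1487) at sec-23, the partner of Sec24, and 18.4 (rank 1816) at sec-16A.2, an exit-site scaffold. Replicate 1 listed no summit in the window of sec-12 or of sec-23. The sec-12 value was the highest pooled signal of any traffic gene outside the reproducible list, just below snx-1 (25.9, rank 1014), the last one inside it. The next below were vps-51 (22) and vps-4 (21.5).

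The exocyst, a tether for vesicles at the plasma membrane, had 1 of 6 genes with a reproducible region, sec-15 (WBGene00016188), whose product binds Rab11 in Drosophila. Its signal was 50.9 in the IDR list (rank 327), 8.86 in replicate 1 (rank 781) and 39.9 in replicate 2 (rank 325), at chrX:8835908-8836271, where 2 regions of each replicate overlapped it and the stronger is given. The summit lay 375 bp upstream of sec-15 but 74 bp inside the divergent gene C28G1.2, in an exon, so C28G1.2 has the nearer 5′ end. Pooled signals were 10.04 at sec-5 and 9.47 at sec-3, and sec-6, sec-8 and sec-10 had no pooled summit.

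Among the 20 Rab genes, 3 had a reproducible region and 13 a pooled one. The strongest was at rab-14 (WBGene00004276), a regulator of endosome and phagosome maturation, with an IDR signal of 104 (rank 69) at chrX:15606919-15607282. It had 39.7 in replicate 1 (rank 23) and 58.7 in replicate 2 (rank 145). The summit was 466 bp upstream of rab-14 and 868 bp upstream of nipi-3, a divergent gene for a Tribbles-like protein of innate immunity. A second reproducible region between these genes (chrX:15607571-15607817, IDR signal 115, rank 53) had its summit 1056 bp upstream of rab-14 and so only in the window of nipi-3. It had 36.2 in replicate 1 (rank 32) and 78.2 in replicate 2 (rank 69), and neither region had a CACGTG within 100 bp of the summit.

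The gene rab-18 (WBGene00004277), whose product acts at the ER and lipid droplets in mammalian cells, had an IDR signal of 68.3 (rank 181) at chrIII:1080576-1080939. The replicates gave 18 (rank 197) and 50.2 (rank 201), the closest ranks of the 12 genes after those of epn-1. The summit was 17 bp inside rab-18, in an exon. It also lay 143 bp upstream of the divergent gene kbp-4, which encodes a kinetochore-binding protein, and 643 bp upstream of par-2, a cell polarity gene.

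At rab-7 (WBGene00004271), the GTPase of late endosomes and lysosomes, the IDR signal was 64.9 (rank 206) at chrII:11967547-11967910, with 12.3 in replicate 1 (rank 418) and 52.8 in replicate 2 (rank 177). Its region was the one reproducible region of the 12 with a CACGTG within 100 bp of the summit, 80 bp from it, and it had a CACGCG 38 bp away. The summit was far from rab-7, 798 bp upstream, and 185 bp upstream of W03C9.5, a gene on the same strand whose annotated span reaches over the 5′ end of rab-7. It was also in the window of mex-1, a divergent gene for an RNA-binding protein of the early embryo.

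The Rab genes next in pooled signal were rab-11.1 (21), rab-5 (20.5) and rab-1 (18.7), which serve recycling, early endosomes and ER-to-Golgi transport, and each was listed in both replicates. With the 1015 strongest regions of replicate 1 alone, rab-5 entered the set with a signal of 8.52 (rank 840). Of the other Rab genes, 7 had no pooled summit, namely rab-19, rab-21, rab-30, rab-33, rab-35, rab-37 and rab-6.1. The neuronal gene rab-3, which acts on synaptic vesicles, had 5.72 (rank 23149). No Arf or Arf-like gene had a reproducible summit in its window. With 2.52% of all genes having one, 0 among 3 arf and 6 arl genes does not set them apart. Pooled signals were 14.3 at arl-3, 11.7 at arl-13, 9.69 at arf-5 and 6.30 at arf-6, while arl-1, arl-5, arl-6, arl-8 and arf-1 had none.

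The strongest region of all 87 genes was upstream of epn-1 (WBGene00001329), the epsin gene, which acts in clathrin-mediated endocytosis. It ran over chrX:14818793-14819182 with an IDR signal of 313, rank 7 of 1015. Replicate 1 gave 86.7 (rank 4) and replicate 2 gave 230.1 (rank 6), so the place in the list was nearly the same in both. The summit was 479 bp upstream of epn-1, in no other protein-coding window. The non-coding transcripts T04C10.8 and T04C10.9 are annotated there. Within 100 bp of the summit lay 2 copies of CACGCG, 1 of them 3 bp from it, and 1 copy each of GAGAGA and CTGCGTC. GC content around the summit was 57.2%, the highest of the 12.

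**Figure D2:**
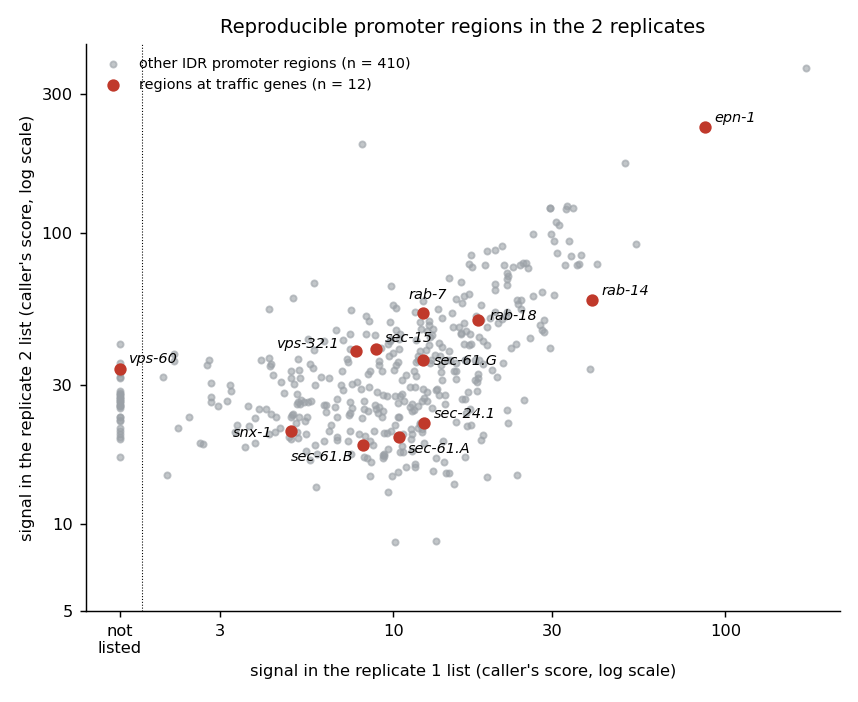
Signal in the replicate 1 list (horizontal axis, log scale) and the replicate 2 list (vertical axis, log scale) at the 12 reproducible regions of traffic genes and at 410 other reproducible promoter regions, with regions absent from the replicate 1 list at the left edge. The epn-1 region sits near the top right, at 86.7 and 230.1, the other traffic regions lie within the main cloud, and vps-60 is not listed in replicate 1.

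Among sorting nexins, 1 of 7 genes, snx-1 (WBGene00004927), had a reproducible region, at the edge of the list. Its product is the membrane-bending partner of retromer. The signal was 25.9 in the IDR list (rank 1014), 4.92 in replicate 1 (rank 3272) and 20.8 in replicate 2 (rank 966), at chrX:1128506-1128869, so the support came mainly from replicate 2. The summit was 298 bp upstream of snx-1 with a CACGCG 43 bp away. Pooled signals were 14.9 at snx-13 and 13.5 at snx-3. The retromer core genes vps-26, vps-29 and vps-35 had no summit in any list, and neither did 9504 of all 19973 genes.

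ESCRT genes had 2 of 11 with a reproducible region and 7 of 11 with a pooled one. Both code for ESCRT-III-type proteins, which form the membrane-cutting filaments. At vps-32.1 (WBGene00016961) the IDR signal was 48.6 (rank 360) at chrII:6588915-6589278, with 7.74 in replicate 1 (rank 1041) and 39.1 in replicate 2 (rank 333). The summit was 611 bp upstream of vps-32.1 and 442 bp upstream of icd-1, a divergent gene for a subunit of the nascent polypeptide-associated complex. At vps-60 (WBGene00018290) the IDR signal was 35 (rank 629) at chrV:8606389-8606752. Replicate 2 gave 34.1 (rank 433) and replicate 1 had no region there, the only such case among the 12. The summit was 443 bp upstream of vps-60, with 3 GAGAGA matches near it, some of them overlapping. Without replicate 2, that is, with the 1015 strongest regions of replicate 1, snx-1, vps-32.1 and vps-60 lost their region. The ATPase gene vps-4, which recycles the filaments, had a pooled signal of 21.5 (rank 1401).

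No gene of HOPS and CORVET, GARP and EARP, or the VPS34 complex had a reproducible summit in its window. Of 8 HOPS and CORVET genes, vps-33.1 (14.7) and vps-39 (11.3) had a pooled summit. Of 5 GARP and EARP genes, which tether vesicles returning from endosomes, 3 had one, at vps-51 (22), vps-50 (10.1) and vps-52 (5.30). Both genes of the VPS34 lipid kinase complex had weak pooled regions, vps-15 (12.3) and vps-34 (11.2), and neither was listed in replicate 1. The lipid transfer gene vps-13 had 8.40. The SNARE genes sec-20 and sec-22, the SNARE regulator gene vps-45 and the signal peptidase gene sec-11 had no pooled summit.

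**Figure D3:**
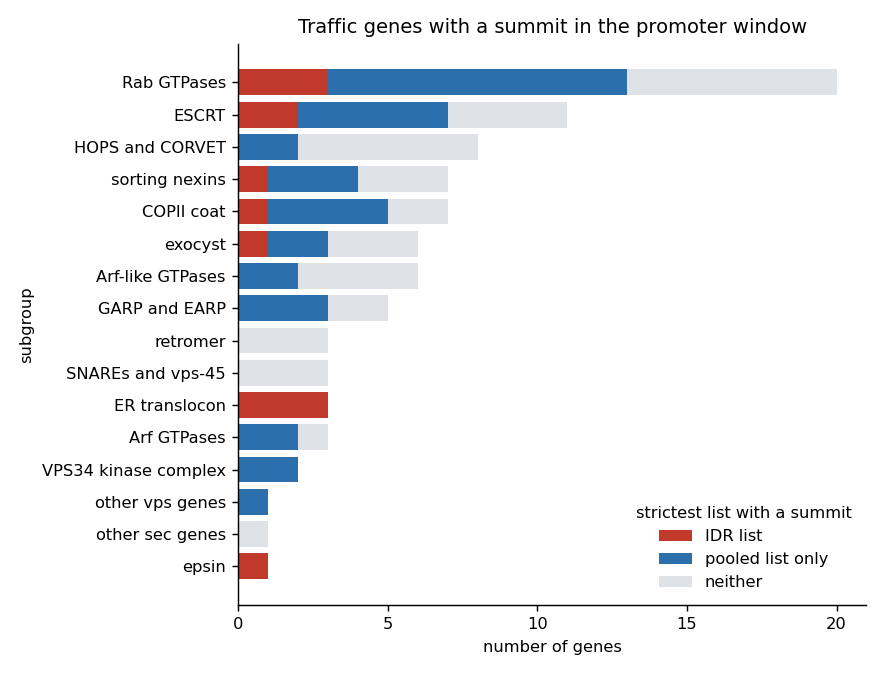
Number of genes (horizontal axis) in each of 16 subgroups (vertical axis), split by whether the promoter window held a summit of the IDR list, of the pooled list only, or of neither. The ER translocon is filled by reproducible regions (3 of 3 genes), Rab GTPases have 3 of 20, and retromer and the SNARE group have no pooled summit.

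Paralogous pairs were unequal in their pooled signal. It was 34.3 at sec-24.1 and 7.31 at sec-24.2. It was 21 at rab-11.1 and 7.68 at rab-11.2. At sec-16A.2 (18.4), rab-6.2 (12.6) and vps-33.1 (14.7) a region was listed, while sec-16A.1, rab-6.1 and vps-33.2 had none. Each of these differences is between 2 regions or a region and none in the same list, with no replicate error on the pooled signal.

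Some reproducible regions lay inside traffic genes but beyond their windows. At vps-25, for an ESCRT-II subunit, a region of signal 79.8 (rank 126) had its summit 4513 bp inside the gene, in an exon, with 17.3 in replicate 1 and 61.6 in replicate 2. At arf-1, the Golgi coat GTPase gene, one of rank 692 lay in an intron 764 bp inside the gene, with 5.77 in replicate 1 and 28.3 in replicate 2. At vps-4 one of signal 36.9 (rank 580) lay in an intron 4807 bp inside it, in the window of npr-23. With the starts of all annotated transcripts as 5′ ends, vps-25 and arf-1 joined the 12 genes, for 14 in all (16.1%, against 2.98% of all genes).

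Of the 12 summits, 9 (75%) lay outside protein-coding genes, against 84.6% of the 410 other reproducible promoter regions. Non-coding genes were not considered in this placement. Exons of protein-coding genes held 3 (25%, at rab-18, sec-15 and sec-61.A), against 7.8%, and introns held 0, against 7.56%. Of the 12, 8 lay at most 500 bp upstream of the member's 5′ end and 2 lay downstream of it. Summits were shared with the window of at least 1 other protein-coding gene at 8 of the 12 genes (66.7%, interval 34.9 to 90.1), in 7 cases on the opposite strand. Over all 504 genes with a reproducible summit the share was 35.9% (181 genes). Overlapping windows were also more common among traffic genes (55.2% against 33.7%), and their part in the sharing was not tested. Whether a shared region acts on 1 gene or both was not tested.

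**Figure D4:**
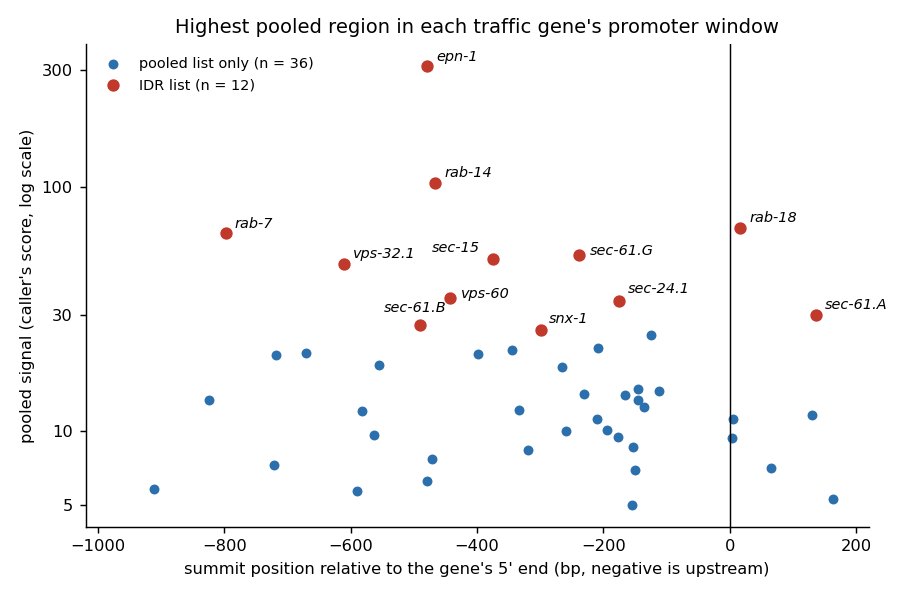
Position of the summit of the highest pooled region in each promoter window relative to the gene's 5′ end (horizontal axis, bp) and its pooled signal (vertical axis, log scale), for the 48 traffic genes with one. The 12 genes with reproducible regions, in red, run from 798 bp upstream (rab-7) to 136 bp downstream (sec-61.A). They lie above the 36 others in signal, which the list fixes in advance. The reproducible list and the 1015 strongest pooled regions both end at a signal of 25.9.

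The motif content of the traffic regions was compared with that of the 410 other reproducible promoter regions, in windows of 100 bp to each side of the summit. CACGTG was in 1 of 12 traffic regions (8.33%, interval 0.211 to 38.5) and in 27.6% of the others, a value inside that interval. It was in 4.23% of the 200 bp upstream of all protein-coding genes. CACGCG was in 4 of 12, at epn-1, rab-7, sec-15 and snx-1 (33.3%, interval 9.92 to 65.1), against 16.1% of the others and 3.41% upstream of all genes.

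GAGAGA was the most frequent of the 8 motifs, in 7 of 12 traffic regions (58.3%, interval 27.7 to 84.8) against 53.7% of the others and 16.3% upstream of all genes. CTGCGTC was in 3 of 12, at epn-1, sec-61.G and sec-24.1 (25%), against 20.2% and 3.25%. TGACGT was in 1, at vps-60 (8.33%, against 11.5% and 6.93%), and GGCGGG in 1, at sec-61.B (8.33%, against 11% and 4.84%). The XBP-1-type site TGACGTG, named for a factor of the ER unfolded protein response, was in none of the 12 (upper limit 26.5%), against 3.90% and 2.03%, and TCACGTGA was in none either, against 1.95% and 0.626%. A match describes letters only. Median GC content was 49.3% over the 12 regions (36.3 to 57.2) and 45.3% over the 410 others, and its part in the motif shares was not tested.

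**Figure D5:**
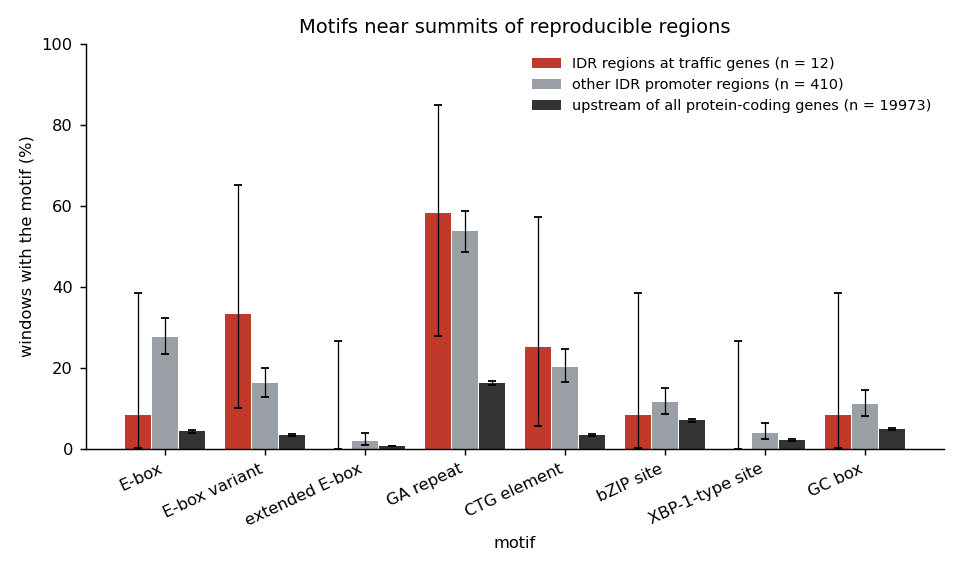
Share of windows with each motif (%, vertical axis; bars with exact 95% intervals) at the 12 reproducible regions of traffic genes, at 410 other reproducible promoter regions and upstream of all protein-coding genes. The 8 motifs carry the names given with their letters in the text. Red bars have wide intervals that overlap the grey ones for every motif.

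The letters CACGTG also stand in windows without a region. Of the 87 windows 19 held them (21.8%, interval 13.7 to 32.0), against 18.4% of all protein-coding genes and 37.1% of all genes with a reproducible summit. Of the 19, 17 belonged to genes without a reproducible region. Such windows were common over all genes too, where 3667 held the letters and 187 of these belonged to genes with a reproducible summit. Of the 17, arl-6, arl-8, sec-11, sec-16A.1, sec-20, sec-31, sec-6, snx-14 and vps-26 had no pooled summit either. In the pooled list 4 traffic genes had a region with CACGTG within 100 bp of the summit. They were rab-7, sec-12 (24.7), sec-23 (20.8) and arf-5 (8.90, rank 9132, not its highest region). The runs at sec-23 and arf-5 are shown for comparison with rab-7, together with the COPII gene sar-1 described next, the E-box and other searched motifs in capitals.
sec-23, chrV:20090893-20090953, plus strand: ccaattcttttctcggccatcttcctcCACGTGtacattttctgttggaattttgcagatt
arf-5, chrIV:7982216-7982276, plus strand: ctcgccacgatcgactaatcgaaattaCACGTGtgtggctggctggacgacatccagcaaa
sar-1, chrIV:4513505-4513565, minus strand: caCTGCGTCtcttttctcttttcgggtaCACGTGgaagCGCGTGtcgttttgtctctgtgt

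Other genes of the pathway with different symbols were taken from 8 lists, which matched 132 genes. A reproducible region lay at 9 of them (6.82%, against 2.52% of all genes) and a pooled one at 73 (55.3%, against 38.2%). The COPII partners had 2 of 4. The gene sar-1, for the GTPase that recruits the coat, had an IDR signal of 49.1 (9.80 in replicate 1 and 42.4 in replicate 2), and its CACGTG lies at the summit. The gene npp-20, for the outer coat protein Sec13, had 28.8 and was not listed in replicate 1. Among ER entry genes, trap-3 had the region shared with sec-61.B. The oligosaccharyltransferase had 1 of 5, dad-1 (28.4), which was not listed in replicate 1. The dad-1 summit also lay in the window of tre-1.

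Clathrin, adaptor and endocytosis genes had 2 of 26 with a reproducible region and 22 of 26 with a pooled one. They were dpy-23 (64.5), for the medium subunit of the AP2 adaptor, with which epsin works at the plasma membrane, and num-1 (44.3), for a Numb-like adaptor. The replicates gave 12 and 49.4 at dpy-23 and 2.18 and 38.4 at num-1. The num-1 summit also lay in the window of sbt-1. GTPase regulators had 1 of 30, the Rab GTPase-activating gene tbc-6 (30.4), and tethers 1 of 19, the TRAPP subunit gene trpp-9 (28.6). The COPI coat had 0 of 7, and SNAREs and fusion genes 0 of 27, of which 13 had a pooled region (48.1%). Over all genes 2.52% had a reproducible region and 38.2% a pooled one. Beside that 2.52%, counts of 0 or 1 do not set these lists apart.

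By chromosome, the reproducible regions were at 4 of 13 traffic genes on X, 3 of 14 on IV, 2 of 9 on V, 2 of 17 on II, 1 of 16 on III and 0 of 18 on I. Over all genes the share was 4.03% on X, 2.04% on IV, 1.52% on V, 2.06% on II, 3.56% on III and 2.99% on I. The orders differ, since V held the lowest share of all genes and the next to highest share of traffic genes (22.2%, 2 genes). Replicate 1 listed 11 of 12 (91.7%) and 92.4% of the 410 other regions, and 9 of 12 (75%) and 65.6% were among its 1015 strongest. Replicate 2 listed all 12, with 10 (83.3%) among its 1015 strongest, against 85.1% of the others. The reproducible list was made from these replicates, so their overlap at its regions is not independent evidence.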

How the data were processed

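ChIP-seq of OP355 L3 larvae gave 4 deposited ce11 region lists. Each replicate list comes from the alignment of 1 replicate and a further file that also enters the control-normalized tracks, the pooled list combines both replicates, and IDR filtering of those 3 lists made the reproducible list, per the deposited file descriptions. For the aligner, the caller and the IDR cutoff, the sources used here give nothing. The signal score of each region is used as deposited by the authors, and the summit is the deposited offset from the region start. The ce10 lists were not used. Sequence and annotation were WBcel235 (RefSeq genome, Ensembl release 115 genes), coordinates are 1-based, and overlaps between lists needed at least 1 bp. Windows, motif searches and intervals were computed with scipy 1.17.1, pandas 2.3.3 and numpy 2.4.6 under Python 3.11.15, tested on simulated data, and plotted with matplotlib 3.10.9. There is 1 group, so no comparison of conditions was made. Members and lists were chosen with earlier results of these data known. Named genes were all members with a reproducible summit in the window or up to 2000 bp upstream, genes sharing it, the 3 members of each subgroup with the highest pooled signal, and list genes with a reproducible summit, of which 1 is not reported here. Others were named after their values were seen. Of the list entries, 3 matched no symbol. Windows, thresholds and lists were varied, and each replicate was left out in turn.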

Additional observations from a re-analysis of the deposited data

How the results depend on the processing

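Of 34 alternative values, 27 stayed within 1.5 times the reported count or within the interval of the reported share, and none turned a direction. One of them, the rank in the pooled list, could not differ, because all 12 members have the same signal and rank there as in the IDR list. The number of traffic genes with a reproducible region was 10 without either replicate, 10 with 500 bp upstream, 12 with 2000 bp upstream, 8 when each summit counted for the nearest 5′ end (chosen after seeing the data) and 7 with the 507 stronger regions. The other traffic lists had 6 to 8 genes with 1 replicate left out and 3 with the 507 stronger regions, 2.27% against 1.29% of all genes. Traffic genes with a pooled summit numbered 30 to 49 with 1 replicate left out, 30 with the 5000 strongest pooled regions (34.5% against 10.2% of all genes) and 4 with CACGTG-bearing regions alone (4.6% against 2.63%). The settings with the stronger or the CACGTG-bearing regions, and the replicate 1 list, hold fewer regions by construction. The share of reproducible traffic regions with CACGTG fell to 0% within 50 bp of the summit and 0% with 500 bp upstream, and was 10% to 20% with 1 replicate left out. It rose to 16.7% (2 of 12) within 200 bp of the summit and likewise over the whole region, against 30.2% and 29.3% of the other regions. That share rests on 1 or 2 regions in each setting where it is above 0. Of the 6 strongest traffic regions, 5 were among the 6 strongest by replicate 1 and 5 by replicate 2. No paired analysis was possible because there is only 1 group. Unknown read depth limits every signal value, and the shorter replicate 1 list lowers its counts.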
